A study of Homo sapiens with 9 samples.

Results

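The zinc finger genes of human chromosome 19 were described in ACHN cells, a human renal carcinoma line, treated with piericidin A, which blocks complex I of the respiratory chain. Members were all rows of the deposited log2 FPKM table that are typed protein-coding, lie on chromosome 19 and have a symbol made of ZNF and a number. This gave 164 genes, 6 of them with a letter after the number, of 18859 genes and 13801 coding genes in the table. FPKM is the number of sequenced fragments of a gene scaled to its length and to the depth of the library. The table holds only genes above 0 FPKM in all 9 libraries. RNA was sequenced from 3 groups of 3 libraries: cells given the solvent DMSO at 0.1%, cells given piericidin A at 25 nM and cells given it at 50 nM. The labels state neither the length of the treatment nor the presence of DMSO in the piericidin A groups. Nor do they tell if replicates came from separate cultures, so p-values measure the spread between these samples, which may be technical. All groups are the same cell line with no genetic change named in the labels.

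C2H2 zinc finger proteins bind DNA through tandem fingers, in which a pair of cysteines and a pair of histidines hold a zinc ion and a short helix reads the bases. Human chromosome 19 carries large arrays of these genes, which arose by tandem duplication. Most of the encoded proteins also have a KRAB domain, which recruits the corepressor TRIM28 and through it the histone methyltransferase SETDB1 and the HP1 proteins that bind the resulting mark. KRAB zinc finger proteins are best known for silencing retroelements, as ZNF91 does for SVA and L1PA elements.

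The fingers of different members can be compared in their coding sequence. For 4 members whose values are described below, the first finger that another follows at the usual spacing is given with its linker, from the 5′ to the 3′ end of the coding strand, as GENCODE 29 transcripts on GRCh38 hold it. The fingers lie at chr19:23362094-23362177 on the minus strand for ZNF91, and on the plus strand at chr19:57211710-57211793 for ZNF264, chr19:58212706-58212789 for ZNF274 and chr19:36236492-36236575 for ZNF146. Capitals mark the codons of the cysteines and histidines that bind zinc.
ZNF91: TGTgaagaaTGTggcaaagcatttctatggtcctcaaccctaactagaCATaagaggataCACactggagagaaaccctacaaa
ZNF264: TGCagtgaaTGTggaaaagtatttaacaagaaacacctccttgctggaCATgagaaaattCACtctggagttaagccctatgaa
ZNF274: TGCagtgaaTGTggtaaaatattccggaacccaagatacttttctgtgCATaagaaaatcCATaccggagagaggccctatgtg
ZNF146: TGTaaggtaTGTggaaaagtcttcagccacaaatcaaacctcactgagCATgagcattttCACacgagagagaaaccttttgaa
Over their 84 bases these fingers shared 57.1% to 66.7% of positions between pairs. They were picked by the marked cysteines and histidines, and fingers of genes elsewhere were not compared. The identity therefore does not show how the members arose. Across the 164 genes the encoded proteins held 0 to 31 fingers by sequence pattern, with a median of 12. ZNF738 had none and ZNF91 the most. A KRAB pattern was found in 132 members and not in 32. The share of 50-base windows of a member's transcript that also occur in another gene was 1.45% at the median, 46 members shared none and 16 shared over 20%, so for those 16 the division of fragments between copies is uncertain.

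Promoters, taken from 250 bases before to 50 bases after the RefSeq start on GRCh38.p14, were at hand for 146 members. They had a median GC content of 60.7% and a median of 21 CpG sites, against 62.7% and 22 in 15843 coding promoters. The letters ACTACANNT, part of the sequence bound by the activator ZNF143, occurred on either strand in 18.5% of the members' promoters and 4.2% of coding promoters. CCGGAAG, the core of ETS factor sites, occurred in 44.5% and 14.2%. GCATGCGC, part of the NRF1 site, occurred in 4.1% and 4.3%, CCAAT in 49.3% and 36.4%, and the GC box GGGCGG in 65.1% and 58.5%. TATAAA was found in 2.7% and 9.6%, and GAANNTTC, the paired unit of heat shock elements, in 6.8% and 5.6%. Each set of letters was searched on both strands on its own, so matches of different motifs may share bases. The promoters of 4 genes that the comparisons below turn on follow, each on the gene's own strand, with matches to ACTACANNT or CCGGAAG or their reverse complements in capitals. They lie at chr19:57191250-57191549 for ZNF264, chr19:36528222-36528521 on the minus strand for ZNF260, chr19:58182811-58183110 for ZNF274 and chr19:56141037-56141336 for ZNF444.
ZNF264: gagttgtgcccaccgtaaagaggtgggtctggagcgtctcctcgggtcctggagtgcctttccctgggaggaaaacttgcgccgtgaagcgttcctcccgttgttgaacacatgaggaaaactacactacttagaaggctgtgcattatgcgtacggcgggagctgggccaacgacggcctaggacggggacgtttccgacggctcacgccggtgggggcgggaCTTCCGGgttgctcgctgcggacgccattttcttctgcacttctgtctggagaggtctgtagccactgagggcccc
ZNF260: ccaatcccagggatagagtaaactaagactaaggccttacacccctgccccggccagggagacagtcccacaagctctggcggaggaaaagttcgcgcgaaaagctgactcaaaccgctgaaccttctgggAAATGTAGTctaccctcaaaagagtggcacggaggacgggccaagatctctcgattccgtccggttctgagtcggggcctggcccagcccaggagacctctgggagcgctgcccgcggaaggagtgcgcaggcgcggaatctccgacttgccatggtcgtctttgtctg
ZNF274: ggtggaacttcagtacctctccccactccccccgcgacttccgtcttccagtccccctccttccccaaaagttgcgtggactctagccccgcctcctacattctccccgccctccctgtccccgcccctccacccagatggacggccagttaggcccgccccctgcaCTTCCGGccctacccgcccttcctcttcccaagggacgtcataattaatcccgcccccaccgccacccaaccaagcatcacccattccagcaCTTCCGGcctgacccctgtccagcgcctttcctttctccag
ZNF444: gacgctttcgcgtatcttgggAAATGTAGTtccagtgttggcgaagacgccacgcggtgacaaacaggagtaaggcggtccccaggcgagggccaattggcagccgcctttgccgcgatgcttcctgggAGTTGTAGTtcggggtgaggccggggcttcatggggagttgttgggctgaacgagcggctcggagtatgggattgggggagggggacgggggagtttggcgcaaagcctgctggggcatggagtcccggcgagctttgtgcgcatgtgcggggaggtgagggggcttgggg
ZNF264 had 1 ETS match and ZNF274 had 2. ZNF260, which was lower at both doses, had 1 ZNF143 match, and ZNF444, which was higher at both doses, had 2. Of the tested members with the ZNF143 letters, 21 in all, 2 were higher and 12 (57.1%) lower at 25 nM, with a median log2 fold change of -0.35. Of the 101 with a promoter and without these letters, 1 was higher and 57 (56.4%) lower, with a median of -0.44. Over all tested genes, 26.3% were higher and 25.8% lower. Leaving out the 25 nM replicate 3, the medians were -0.40 with and -0.38 without the letters.

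The libraries held 24365472 to 29245674 recovered fragments. Pairs of replicates differed by a chi-square per degree of freedom of 1.75 to 2.39 in DMSO and 4.77 to 7.88 at 50 nM, where counting error alone gives a value near 1. At 25 nM it was 2.36 between replicates 1 and 2, and 15.69 and 17.81 between those and replicate 3, which stands apart. Of the markers listed for renal epithelium, PAX8 lay between 66.0 and 93.5 FPKM in all libraries. CD68, PECAM1, VWF and ALB, which mark other cell types, did not exceed 0.0379 FPKM, and CDH6, LRP2 and PTPRC were not analysed here.

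Zinc finger genes of chromosome 19 were weakly expressed. Their mean level over the 9 libraries had a median of 0.932 FPKM, against 4.82 FPKM over all coding genes of the table. It reached from 0.0284 FPKM for ZNF229 to 19.5 FPKM for ZNF581. Only 8 members lay above 5 FPKM and 89 lay under 1 FPKM. The 5 most abundant were ZNF581, ZNF146, ZNF787, ZNF579 and ZNF428, none of which had the KRAB pattern. Members and all coding genes had like lengths, with medians of 4939.5 and 4997 bases, but the members' transcripts were poorer in GC, at a median of 43.25% against 49.7%.

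Summed over the 164 members, expression was lowest at 25 nM. The sum was 283.7, 281.8 and 285.2 FPKM in the DMSO libraries, 222.5, 223.6 and 225.0 FPKM at 25 nM and 240.7, 237.4 and 243.5 FPKM at 50 nM. All libraries of the lower dose lay below all of the higher dose, and these below all of DMSO. The members' share of all recovered fragments averaged 0.1378 ± 0.0018% in the DMSO libraries, then 0.1007 ± 0.0032% with 25 nM and 0.1212 ± 0.0026% with 50 nM piericidin A (SD, n = 3 each). In RNA of whole cultures, a lower level in every cell and fewer cells with the transcript cannot be told apart.

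**Figure D1:**
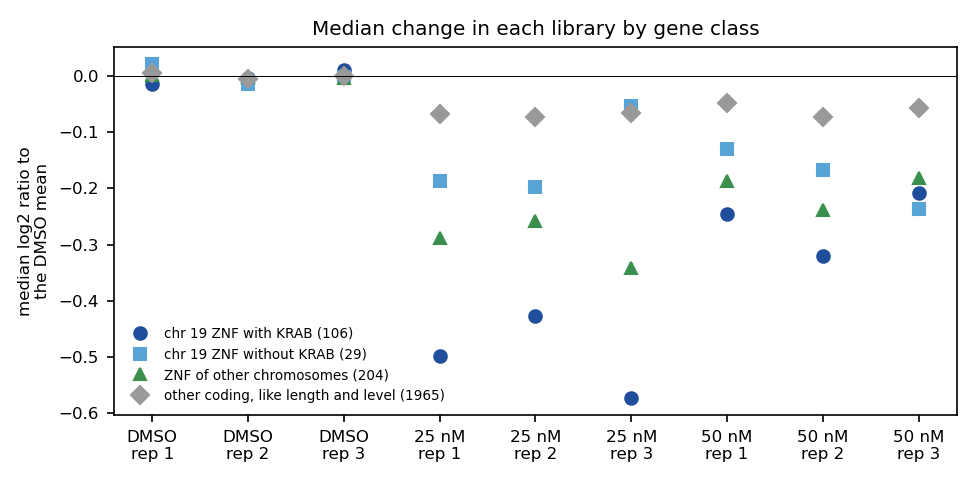
Median log2 ratio of each library to the mean of the DMSO libraries (y axis), for 4 classes of tested genes over the 9 libraries (x axis). Each marker is 1 library and class, and the chromosome 19 genes with a KRAB pattern lie lowest in the 3 libraries of 25 nM, between -0.57 and -0.43.

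For tests, 135 members had at least 0.5 FPKM in at least 3 libraries, and 29 did not. The untested members had means of 0.0284 to 0.404 FPKM. Just below that minimum stood ZNF30, ZNF575, ZNF527 and ZNF221, and just above it ZNF701, ZNF114, ZNF773 and ZNF17. In 7 tested members, ZNF181, ZNF566, ZNF382, ZNF607, ZNF112, ZNF772 and ZNF773, no treated library reached 0.5 FPKM, so they were tested through DMSO alone. The counts over all members are therefore given also without these 7. Others, among them ZNF555, ZNF699, ZNF253 and ZNF708, reached 0.5 FPKM in fewer than 3 treated libraries. They too needed DMSO libraries to be tested, and they remain in those counts. The third highest library had 0.476 FPKM in ZNF221 and 0.502 FPKM in ZNF701. Differences were tested with limma on log2(FPKM + 0.1) over all 15541 genes past the minimum, with Benjamini-Hochberg adjustment, and a gene is called higher or lower at an adjusted p under 0.05. The pseudocount understates the changes of genes near 0 FPKM. Both doses were set against the same 3 DMSO libraries.

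At 25 nM, 78 of the 135 tested members were lower and 3 were higher than in DMSO. Over all 15541 genes tested, 25.8% were called lower and 26.3% higher. The members' median log2 fold change was -0.45, against 0.02 over all tested genes, and 121 members had a negative value. In 98 members all 3 libraries of 25 nM lay below all 3 of DMSO, as in 31.1% of all tested genes, and in 3 all lay above, as in 31.5%. Without the 25 nM replicate 3, 72 members were lower, 2 were higher and the median was -0.39. In that fit 25.1% of all tested genes were lower and 24.7% higher. Without the 7 members tested through DMSO alone, 72 of 128 were lower and 3 higher, with a median of -0.43. The lowest count of lower members with any 1 library left out was 63, without the DMSO replicate 3. There 21.4% of all tested genes were lower. With a pseudocount of 1 in place of 0.1, the median was -0.24.

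The KRAB gene ZNF264 (ENSG00000083844, chr19:57191500-57222846, plus strand, hg38) had the smallest adjusted p. It had 1.04, 1.20 and 0.992 FPKM in the 25 nM libraries, against 2.31, 2.40 and 2.54 FPKM in DMSO. Every treated library lay below 1.5 FPKM and every DMSO library above 2 FPKM, a log2 fold change of -1.10 (SE 0.09, limma adjusted p = 2.54e-05). ZNF160, a KRAB protein linked to silencing of the endotoxin receptor gene TLR4, had 1.07, 1.22 and 1.18 FPKM at 25 nM and 2.44, 2.38 and 2.40 FPKM in DMSO. Its DMSO libraries were close to each other and well above the treated ones, with a log2 fold change of -0.997 (SE 0.09, limma adjusted p = 5.22e-05). ZNF121, which has fingers and no KRAB pattern, had 1.79, 2.05 and 2.13 FPKM at 25 nM and 3.49, 3.61 and 3.44 FPKM in DMSO, with no overlap. Its log2 fold change was -0.79 (SE 0.07, limma adjusted p = 4.59e-05).

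ZNF14, a KRAB gene in an array on the short arm, had 1.13, 0.984 and 0.942 FPKM at 25 nM and 2.17, 1.94 and 2.23 FPKM in DMSO. All treated libraries lay below all DMSO libraries, with a log2 fold change of -0.99 (SE 0.12, limma adjusted p = 2.03e-04). The silencer of SVA elements, ZNF91 (ENSG00000167232, chr19:23304991-23395560, minus strand), had 0.783, 0.852 and 0.650 FPKM at 25 nM and 1.40, 1.55 and 1.42 FPKM in DMSO. The groups did not overlap, and the log2 fold change was -0.86 (SE 0.12, limma adjusted p = 3.51e-04). The other members named by the rule for this direction were ZNF766, ZNF616, ZNF791, ZNF567, ZNF562 and ZNF780A, with log2 fold changes of -0.89 to -0.66. Of these, ZNF791 overlaps ZNF490, ZNF567 overlaps ZNF850, and ZNF766 and ZNF562 overlap non-coding genes. The strandedness of the libraries was not given in the sources used here, so fragments of overlapping genes cannot be told apart.

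The most negative log2 fold change among called members was that of ZNF607, a KRAB gene with 18 fingers, which had 0.188, 0.147 and 0.297 FPKM at 25 nM and 0.694, 0.859 and 0.737 FPKM in DMSO. No libraries overlapped, but its values rest on 18 to 109 fragments per library (log2 fold change -1.50, SE 0.27, limma adjusted p = 0.00147). ZNF607 was tested only because its DMSO libraries reached 0.5 FPKM, so it had to differ to be tested at all. By the ratio of FPKM means, 13 members called lower were at least 2-fold lower, and they are named here after their values were seen. They were ZNF557, ZNF699, ZNF14, ZNF253, ZNF708, ZNF181, ZNF566, ZNF607, ZNF112, ZNF160, ZNF264, ZNF805 and ZNF552. Like ZNF607, the genes ZNF181, ZNF566 and ZNF112 were tested through DMSO alone and had to differ to be tested. ZNF699, ZNF253 and ZNF708 also needed their DMSO libraries to be tested. With the pseudocount, 7 of the 13 had a log2 fold change of -1 or below. ZNF146, made almost wholly of fingers, was the most abundant member that was lower. It had 18.3, 18.9 and 16.1 FPKM at 25 nM and 21.0, 21.1 and 20.5 FPKM in DMSO, without overlap, and a log2 fold change of -0.23 (SE 0.06, limma adjusted p = 0.0109).

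The 3 members that were higher at 25 nM were ZNF444, ZNF428 and ZNF358, none with a KRAB pattern. ZNF444 has a SCAN domain, which pairs zinc finger proteins with each other, and is known to bind the promoter of the scavenger receptor gene SCARF1. It had 2.82, 2.67 and 2.77 FPKM at 25 nM and 2.24, 2.36 and 2.31 FPKM in DMSO. The groups did not overlap, and the log2 fold change was 0.25 (SE 0.06, limma adjusted p = 0.00645). The log2 fold change was 0.34 for ZNF428 (SE 0.08, limma adjusted p = 0.0067) and 0.30 for ZNF358 (SE 0.10, limma adjusted p = 0.0343). ZNF358 was not called without the 25 nM replicate 3 (limma adjusted p = 0.0568), nor without any 1 of the DMSO libraries. After removal of the trend of fold change over gene length in each library, ZNF444 alone of the 3 was still called. After removal of the trend over GC content, a step added after the data were seen, ZNF428 alone was. ZNF444 overlaps a non-coding gene on its own strand, and ZNF428 overlaps SRRM5.

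**Figure D2:**
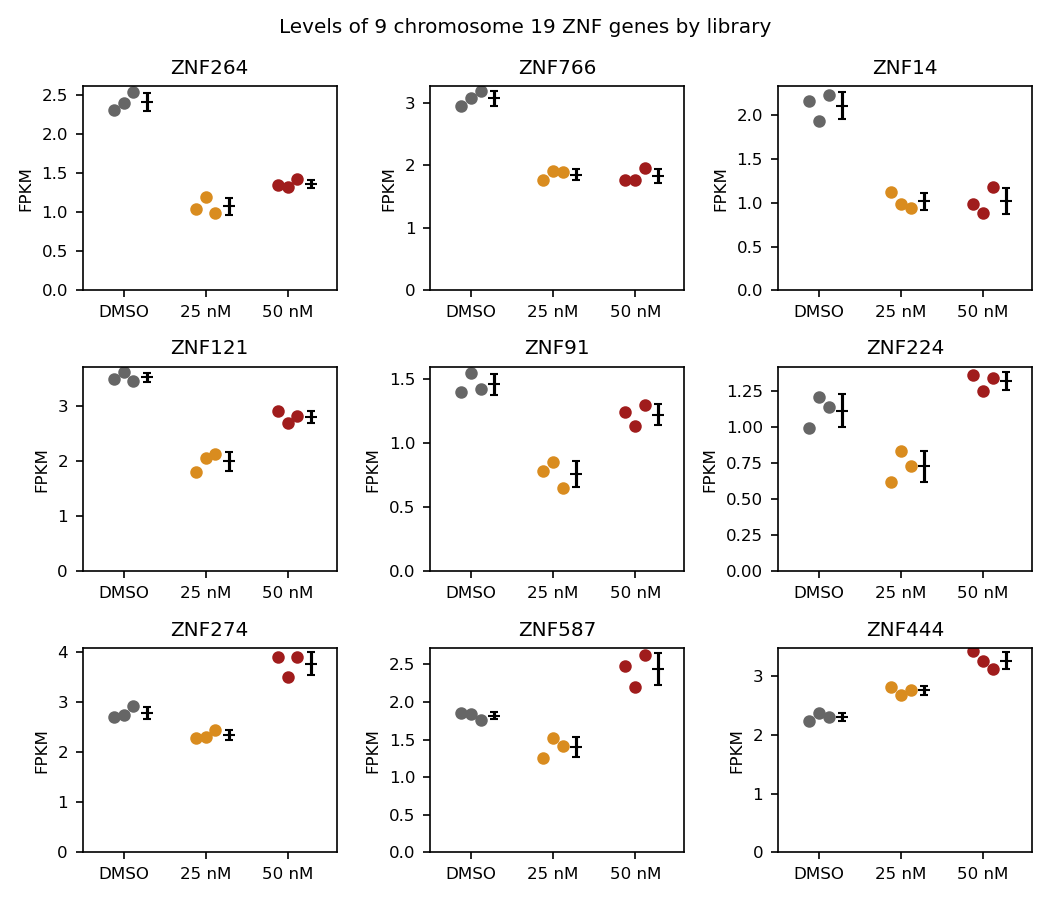
FPKM (y axis, from 0) of 9 chromosome 19 zinc finger genes in the 3 groups (x axis, by dose). Each point is 1 library, and the bar beside the points is the mean ± SD of 3. ZNF264, ZNF766 and ZNF14 lie low at both doses, ZNF121, ZNF91 and ZNF224 lie lowest at 25 nM, ZNF274 and ZNF587 lie highest at 50 nM, and ZNF444 rises with dose.

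At 50 nM, 54 members were lower and 10 were higher than in DMSO. Over all tested genes, 31.5% were called lower and 29.2% higher, so the members' share of lower calls, 40.0%, lay nearer to the background than at 25 nM. The median log2 fold change was -0.24, against 0.00 over all tested genes, and 101 members had a negative value. In 77 members the 50 nM libraries all lay below the DMSO libraries, as in 36.5% of all tested genes, and in 15 all above, as in 33.9%. By the ratio of FPKM means, called changes reached 2-fold in 5 members, with ZNF699, ZNF14, ZNF181 and ZNF382 lower and ZNF432 higher, named after their values were seen. Of these, ZNF181 and ZNF382 were tested through DMSO alone and had to differ to be tested. ZNF699 also needed its DMSO libraries to be tested. Without the 7 members tested through DMSO alone, 51 of 128 were lower and 10 higher, with a median of -0.22. This comparison depended on the scaling of libraries. With quantile normalization 96 members were lower, 6 were higher and the median was -0.57, while 36.2% of all tested genes were lower and 26.6% higher. With the trend over GC content removed, 20 members were higher, against 34.0% of all genes in that fit, and the median was -0.07.

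ZNF766, a KRAB gene (ENSG00000196214, chr19:52269571-52296046, plus strand), had the smallest adjusted p. It had 1.77, 1.76 and 1.95 FPKM at 50 nM, against 2.95, 3.09 and 3.19 FPKM in DMSO. Its treated libraries all lay below 2 FPKM, a log2 fold change of -0.72 (SE 0.07, limma adjusted p = 3.09e-05). The same gene had 1.76, 1.91 and 1.89 FPKM at 25 nM, so its levels at the doses overlapped. On the log2 scale with the pseudocount, ZNF14 had the largest fall among called members. By the ratio of FPKM means ZNF699 fell further, to 0.467 of DMSO against 0.482 for ZNF14. ZNF14 had 0.984, 0.889 and 1.18 FPKM at 50 nM and 2.17, 1.94 and 2.23 FPKM in DMSO. All its treated libraries lay under 1.2 FPKM and the log2 fold change was -0.99 (SE 0.12, limma adjusted p = 1.19e-04). ZNF264 had 1.36, 1.32 and 1.43 FPKM at 50 nM, below all DMSO libraries given above, with a log2 fold change of -0.78 (SE 0.09, limma adjusted p = 8.26e-05).

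ZNF260, whose rat counterpart is known as a transcription factor of heart muscle cells, had 3.11, 3.31 and 3.42 FPKM at 50 nM and 4.98, 4.98 and 4.97 FPKM in DMSO. Its DMSO libraries were nearly alike and the treated ones all lower, with a log2 fold change of -0.59 (SE 0.08, limma adjusted p = 1.8e-04). The other lower members named by rule were ZNF616, ZNF561, ZNF480, ZNF317, ZNF845 and ZNF574, with log2 fold changes of -0.82 to -0.36. ZNF574 overlaps GRIK5, and ZNF561 and ZNF480 overlap non-coding genes. Both most abundant members were lower at this dose. ZNF581 had 15.4, 16.9 and 15.5 FPKM at 50 nM and 23.0, 22.2 and 22.0 FPKM in DMSO, and ZNF146 had 15.8, 16.2 and 17.3 FPKM against 21.0, 21.1 and 20.5 FPKM. Neither gene's groups overlapped, and the log2 fold changes were -0.49 for ZNF581 (SE 0.07, limma adjusted p = 4.24e-04) and -0.35 for ZNF146 (SE 0.06, limma adjusted p = 0.00107). ZNF581 overlaps CCDC106 and ZNF580 on its own strand. ZNF580 itself was not called, at 0.18 (SE 0.11).

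Among the 10 higher members at 50 nM, ZNF444, ZNF428 and ZNF358 were also higher at 25 nM. ZNF444 had 3.41, 3.25 and 3.11 FPKM at 50 nM, all above the DMSO libraries given above, with a log2 fold change of 0.48 (SE 0.06, limma adjusted p = 1.08e-04). ZNF428 had a log2 fold change of 0.49 (SE 0.08, limma adjusted p = 7.11e-04) and ZNF358 of 0.33 (SE 0.10, limma adjusted p = 0.0186). ZNF358 was not called without the 50 nM replicate 3 (limma adjusted p = 0.0652) or without the DMSO replicate 2 (0.0618). The largest rise was that of ZNF432, a KRAB gene, with 1.07, 1.08 and 1.07 FPKM at 50 nM and 0.475, 0.605 and 0.504 FPKM in DMSO. Its treated libraries were nearly alike and all above those of DMSO, a log2 fold change of 0.91 (SE 0.16, limma adjusted p = 0.00106). ZNF841, its neighbour that overlaps it on the same strand, was also higher, at 0.42 (SE 0.13, limma adjusted p = 0.0164), so fragments of this pair may be shared. ZNF841 was not called without the 50 nM replicate 1 (limma adjusted p = 0.0533) or without the DMSO replicate 1 (0.0626). ZNF83 and ZNF761, with 0.59 and 0.29, overlap the pseudogenes ZNF137P and TPM3P9, and neither of these, nor ZNF841, was called with quantile normalization. ZNF761 also lost its call without any 1 of 4 libraries, among them the 50 nM replicate 1 (limma adjusted p = 0.0929). ZNF653, named after its values were seen, was the remaining higher member, at 0.55 (SE 0.21, limma adjusted p = 0.045).

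In 24 members the level at 50 nM was higher than at 25 nM, and in 2 it was lower. Over all tested genes, 14.7% were called higher and 18.8% lower in this comparison. The members' median log2 fold change was 0.14, against -0.01 over all tested genes. In 52 members all 50 nM libraries lay above all 25 nM libraries, as in 21.0% of all tested genes, and in 4 all lay below, as in 24.4%. Without the 7 members tested through DMSO alone, 24 of 128 were higher and 2 lower. With the 25 nM replicate 3 left out, 24 members were higher and 3 lower, against 15.6% and 21.9% of all tested genes. Without the 50 nM replicate 1, 16 were higher, against 9.45% of all tested genes. With quantile normalization 8 members were higher and 11 lower and the median turned to -0.12, while 12.1% of all tested genes were higher and 18.4% lower. With the GC trend removed 55 members were higher, against 20.6% of all genes in that fit, and the median was 0.22.

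ZNF274, which brings SETDB1 to the 3′ ends of zinc finger genes, had the smallest adjusted p (ENSG00000171606, chr19:58183029-58213562, plus strand). It had 2.70, 2.75 and 2.92 FPKM in DMSO, 2.29, 2.30 and 2.46 FPKM at 25 nM and 3.90, 3.51 and 3.91 FPKM at 50 nM. No libraries of different groups overlapped, with the lower dose below DMSO and the higher dose above it. The log2 fold change was 0.66 at 50 nM against 25 nM (SE 0.07, limma adjusted p = 3.06e-04), -0.24 at 25 nM against DMSO (SE 0.07, limma adjusted p = 0.0133) and 0.42 at 50 nM against DMSO (SE 0.07, limma adjusted p = 4.63e-04). The 25 nM call was lost without the DMSO replicate 3 (limma adjusted p = 0.0553) and with the length trend removed (0.39). ZNF587 was the other member called in opposite directions at the doses. It had 1.85, 1.84 and 1.76 FPKM in DMSO, 1.26, 1.52 and 1.42 FPKM at 25 nM and 2.47, 2.20 and 2.62 FPKM at 50 nM. Its groups too did not overlap, and its log2 fold changes against DMSO were -0.36 at 25 nM (SE 0.09, limma adjusted p = 0.0096) and 0.40 at 50 nM (SE 0.09, limma adjusted p = 0.00462). ZNF587 overlaps ZNF814 and shares 20.2% of its windows with other genes, and its 25 nM call was lost with the length trend removed (limma adjusted p = 0.06).

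ZNF224, a repressor of the aldolase A gene, had 1.37, 1.25 and 1.34 FPKM at 50 nM and 0.621, 0.833 and 0.735 FPKM at 25 nM. The groups did not overlap, and the log2 fold change of 0.78 was the largest rise between the doses (SE 0.13, limma adjusted p = 0.00224). In DMSO it had 0.993, 1.21 and 1.14 FPKM, above every 25 nM library, and it was lower at 25 nM by limma (log2 fold change -0.56, adjusted p = 0.00585) while at 50 nM it was not called (0.23, SE 0.13). ZNF91 had 1.24, 1.13 and 1.29 FPKM at 50 nM, above all 25 nM libraries and below all DMSO libraries. Its log2 fold change was 0.62 at 50 nM against 25 nM (SE 0.12, limma adjusted p = 0.0042), and -0.24 at 50 nM against DMSO, which was not called (SE 0.12). ZNF266, ZNF121, ZNF841, ZNF791, ZNF529 and ZNF160 completed the named rises between the doses, with log2 fold changes of 0.41 to 0.75. With quantile normalization ZNF91, ZNF529 and ZNF160 were not called. The exception in the other direction was ZNF581, with 15.4, 16.9 and 15.5 FPKM at 50 nM and 19.03, 18.6 and 22.8 FPKM at 25 nM, without overlap. Its log2 fold change was -0.33 (SE 0.07, limma adjusted p = 0.00931). ZNF627, named after its values were seen, was also lower at 50 nM than at 25 nM, at -0.30 (SE 0.09, limma adjusted p = 0.0325), but its libraries overlapped between the doses.

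Some members have described roles, and the following were named for these roles after the values were seen. ZNF350, a partner of BRCA1 in repression, had 1.47, 1.82 and 1.62 FPKM in DMSO, 0.927, 0.972 and 0.868 FPKM at 25 nM, and 0.963, 0.917 and 0.939 FPKM at 50 nM. Its libraries at both doses lay below all DMSO libraries, with log2 fold changes of -0.76 (SE 0.11, limma adjusted p = 3.67e-04) and -0.74 (SE 0.11, limma adjusted p = 2.9e-04). ZNF473, which takes part in 3′ end processing of histone mRNA, was lower by limma as well, at -0.55 at 25 nM (SE 0.15, adjusted p = 0.0137) and -0.64 at 50 nM (SE 0.15, adjusted p = 0.00526). ZNF304, which recruits silencing enzymes to the INK4-ARF locus in colorectal cancer cells, was lower by limma at -0.48 (SE 0.09, adjusted p = 0.00201) and -0.32 (SE 0.09, adjusted p = 0.0132). ZNF420, a regulator of p53, was not called at either dose, at -0.34 (SE 0.14) and -0.27 (SE 0.14).

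**Figure D3:**
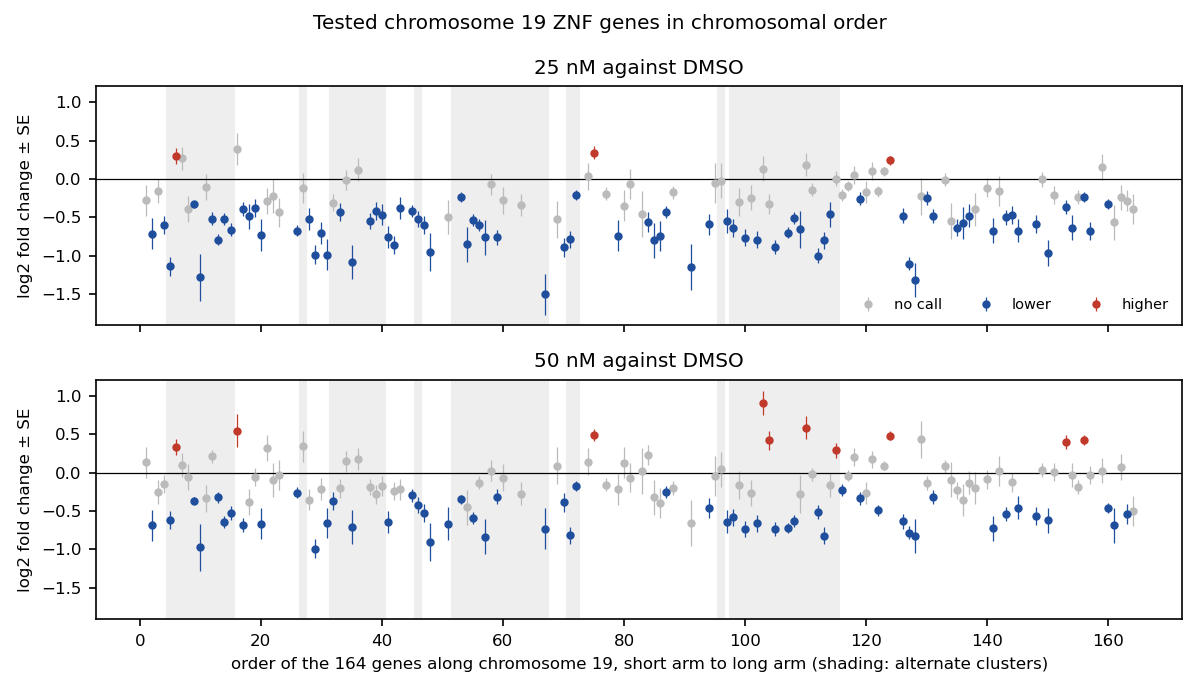
Log2 fold change ± SE (y axis) of each tested gene in its order along chromosome 19 (x axis, all 164 genes counted), at 25 nM and 50 nM against DMSO. Points are genes, coloured by call, and shading marks alternate clusters. Lower calls lie along the whole chromosome at both doses, with 78 at 25 nM and 54 at 50 nM.

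The members formed 17 clusters along chromosome 19 when neighbours within 1 Mb were joined. At 25 nM, every cluster had a negative median log2 fold change, from -0.02 for the single gene ZNF114 to -0.84 for the 4 tested genes at chr19:19668796-19894674, an array that holds ZNF14. All 4 of those genes were lower at 25 nM and 2 at 50 nM, against 25.8% and 31.5% of all tested genes. The 4 tested genes of the array that holds ZNF91, at chr19:23221599-24129961, were also all lower at 25 nM, with a median of -0.58. The largest cluster, at chr19:55476332-58481230 near the end of the long arm, had 42 tested genes. Of those, 20 (47.6%) were lower and 1 was higher at 25 nM, with a median of -0.30. Without the 25 nM replicate 3, 25.1% of all tested genes were lower. The medians of these 3 clusters were then -0.80, -0.51 and -0.31, and 4, 3 and 20 of their genes were lower. At 50 nM the counts of the largest were 15 lower (35.7%, near the share of all tested genes) and 3 higher, with a median of -0.16. In the cluster at chr19:51571298-53458261, 4 of 17 tested genes (23.5%) were higher at 50 nM, against 29.2% of all tested genes. There 8 (47.1%) were lower and the median was -0.28. Neighbouring genes share sequence and some share transcribed bases, so clusters are not independent samples.

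Medians of members with and without the KRAB pattern lay furthest apart at 25 nM. Of 106 tested members with it, 67 (63.2%) were lower and 0 were higher at 25 nM, against 25.8% and 26.3% of all tested genes. These members had a median log2 fold change of -0.49. Of 29 members without the pattern, 11 (37.9%) were lower and 3 (10.3%) higher, with a median of -0.16. The counts by class include members tested through DMSO alone. The gap between the medians was widest in the 25 nM replicate 3. There the median log2 ratio to DMSO was -0.57 with the pattern and -0.05 without it. It was -0.50 and -0.19 in replicate 1 and -0.43 and -0.20 in replicate 2. Without replicate 3, 58 members with the pattern (54.7%) were lower and 0 higher, with a median of -0.45. In that fit 14 without it (48.3%) were lower and 2 higher, with a median of -0.19, and 25.1% of all tested genes were lower. The shares of lower calls thus lay nearer to each other. At 50 nM the medians were -0.25 with the pattern (42 or 39.6% lower, 5 higher) and -0.19 without it (12 or 41.4% lower, 5 higher). Over all tested genes, 31.5% were lower and 29.2% higher at that dose. Between the doses, 22 members with the pattern (20.8%) were higher at 50 nM and 1 was lower, with a median of 0.20. Without the pattern, 2 (6.90%) were higher and 1 was lower, with a median of 0.03, against 14.7% higher of all tested genes. The classes also differed in GC content, with medians of 42.7% and 61.7%, and in length, and the part of these in the difference was not tested. By number of fingers, the median at 25 nM was -0.16 in 34 members with up to 8, -0.48 in 71 with 9 to 15 and -0.54 in 30 with 16 or more. Among KRAB members alone these medians were -0.49, -0.48 and -0.54. With the 25 nM replicate 3 left out, they were -0.26, -0.44 and -0.43 over all members, and -0.43, -0.49 and -0.43 over KRAB members. Overlaps were sought only among genes of the log2 FPKM table, so overlaps with other annotated genes were not seen. Members that overlap no other gene of it had a median of -0.48 at 25 nM (86 genes, 52 or 60.5% lower, 1 higher). Members that overlap another had -0.34 (49 genes, 26 or 53.1% lower, 2 higher). These medians were -0.43 and -0.32 without the 25 nM replicate 3. Of the 10 higher members at 50 nM, 8 were among the 49 that overlap another gene (16.3%, against 29.2% of all tested genes).

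Other coding genes of like length gave smaller medians. The set held 7392 tested coding genes between the 10th and 90th percentile of the members' length, 2716.4 to 8381.6 bases. Of these, 30.5% were lower and 27.9% higher at 25 nM, with a median of -0.01. At 50 nM 41.6% were lower and 25.4% higher, with a median of -0.10, so the share of lower calls was close to the members' 40.0%. Between the doses, 13.5% were higher at 50 nM and 27.9% lower, with a median of -0.08. Members were weakly expressed, and among 1965 other coding genes of like length and like level, 28.8% were lower and 17.0% higher at 25 nM, with a median of -0.08. At 50 nM those shares were 31.5% and 25.6% with a median of -0.06, and between the doses 18.2% were higher and 6.67% lower with a median of 0.04. In 1582 genes within the members' 10th to 90th percentile of length, level and GC content, the medians were -0.08 at 25 nM, -0.07 at 50 nM and 0.02 between the doses. These bands are wide, and the median GC content of the set was 49.1%, against 43.4% in tested members. In 4 groups of members ranked by GC content, poorest first, the 50 nM medians were -0.28, -0.36, -0.15 and -0.18. Other coding genes of those GC contents had -0.25, -0.20, -0.16 and 0.04. The part of GC content was not tested. Without the 25 nM replicate 3, the medians at 25 nM were -0.01 for like length, -0.07 for like length and level, and -0.08 for all 3 properties.

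**Figure D4:**
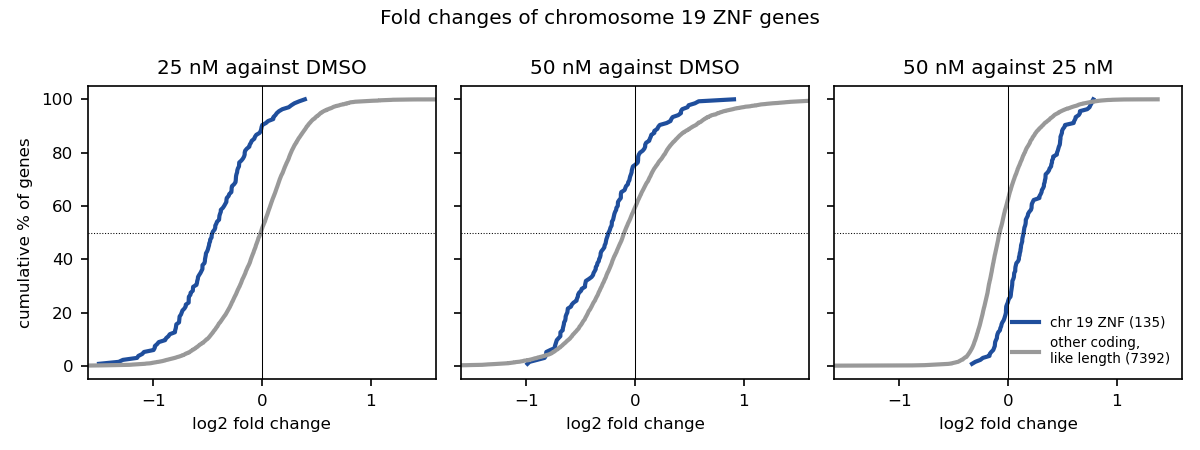
Cumulative share of genes (y axis, percent) at or below a log2 fold change (x axis), for the 135 tested chromosome 19 zinc finger genes and 7392 other coding genes of like length, in the 3 comparisons. The zinc finger curve lies left of the other at 25 nM, with medians of -0.45 and -0.01, nearer to it at 50 nM and right of it between the doses.

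Long coding genes in general had lower fold changes at 25 nM. The Spearman correlation of log2 fold change with gene length at 25 nM was -0.264 over the 135 members and -0.373 over 11587 other coding genes, as a description across genes that share the same libraries. In the shortest 25% of the members' length range by rank, the median at 25 nM was -0.20 in members and 0.17 in other coding genes of those lengths, and in the longest 25% it was -0.52 and -0.20. These medians, without the 25 nM replicate 3, were -0.26 and 0.13 in the shortest and -0.43 and -0.15 in the longest. With the length trend of other genes removed from each library, the members' median at 25 nM was -0.37. With the GC trend removed it was -0.36, and with both removed, GC first, -0.37. At 50 nM the longest 25% of members had a median of -0.20 and other coding genes of those lengths -0.22.

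**Figure D5:**
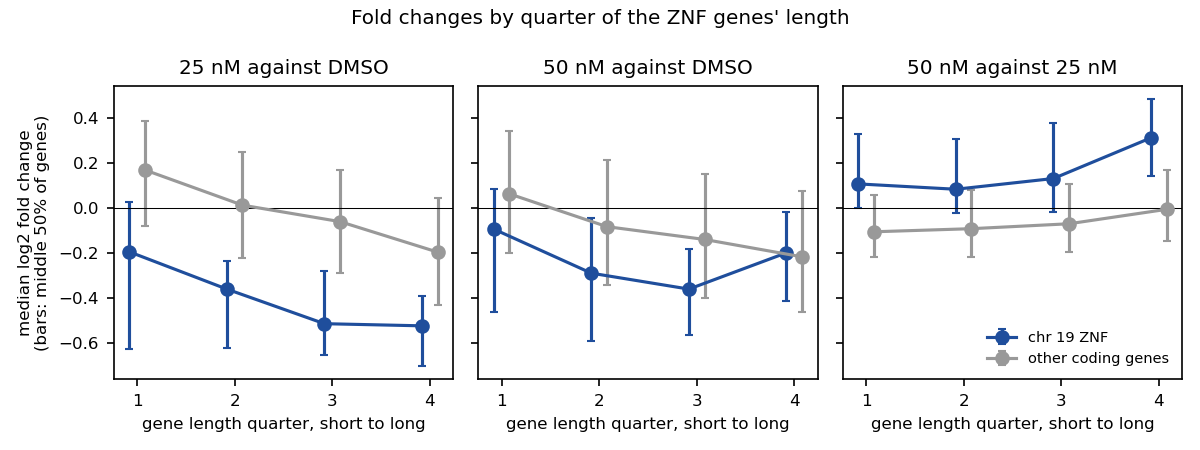
Median log2 fold change (y axis) with bars for the middle 50% of genes, in 4 equal groups of the zinc finger genes ranked by length, short to long (x axis), for those genes and for other coding genes of the same lengths. At 25 nM the zinc finger medians lie below the others in all 4 length groups, and at 50 nM both meet in the longest, at -0.20 and -0.22.

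Zinc finger genes of other chromosomes also had more lower than higher calls. Of 204 tested genes, 109 (53.4%) were lower and 12 (5.88%) higher at 25 nM, with a median log2 fold change of -0.33. The shares over all tested genes were 25.8% and 26.3%. At 50 nM 91 (44.6%) were lower and 32 (15.7%) higher, with a median of -0.20, against 31.5% and 29.2% of all tested genes. Between the doses 42 (20.6%) were higher and 11 (5.39%) lower, with a median of 0.06, against 14.7% and 18.8%. The other 629 tested coding genes of chromosome 19 had more higher than lower calls. Of those, 81 (12.9%) were lower and 291 (46.3%) higher at 25 nM, with a median of 0.19. At 50 nM 106 (16.9%) were lower and 276 (43.9%) higher, with a median of 0.15. The list of other C2H2 gene families of the chromosome had 6 tested genes, of which 2 were higher and 2 lower at 25 nM. ZFP36, which is among them, matched by name only and encodes an RNA-binding protein with another type of finger. It was higher at 25 nM, at 0.46 (SE 0.08, limma adjusted p = 0.0013). The KRAB gene ZFP30 had 0.678, 0.773 and 0.527 FPKM at 25 nM and 1.27, 1.38 and 1.33 FPKM in DMSO, a log2 fold change of -0.92 (SE 0.15, limma adjusted p = 9.57e-04). MZF1, a SCAN zinc finger gene at the end of the long arm, was higher by limma, at 0.61 at 25 nM (SE 0.13, adjusted p = 0.00347) and 1.21 at 50 nM (SE 0.13, adjusted p = 4.86e-05). ZBTB7A, a BTB zinc finger repressor, was lower by limma, at -0.48 (SE 0.05, adjusted p = 6.79e-05) and -0.29 (SE 0.05, adjusted p = 6.26e-04).

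Genes for the partners of KRAB proteins held called changes in both directions. Of 34 tested genes of the repressor machinery, 14 (41.2%) were higher and 7 (20.6%) lower at 25 nM, against 26.3% and 25.8% of all tested genes, with a median log2 fold change of 0.08. At 50 nM 10 (29.4%) were higher and 6 (17.6%) lower, against 29.2% and 31.5%, with a median of 0.02. The corepressor TRIM28 had 76.0 ± 2.13 FPKM in the DMSO libraries, 74.5 ± 5.74 FPKM with 25 nM and 77.0 ± 4.51 FPKM with 50 nM (SD, n = 3 each), and its log2 fold changes of -0.03 and 0.02 (SE 0.06) were not called. SETDB1 was not called against DMSO at either dose and was higher at 50 nM than at 25 nM, at 0.24 (SE 0.07, limma adjusted p = 0.0359). Of the subunits of the HUSH complex, which silences retroelements with SETDB1, FAM208A was lower and MPHOSPH8 higher at both doses, and PPHLN1 was called higher at 25 nM and not called at 50 nM. FAM208A had 11.3 ± 0.391 FPKM in the DMSO libraries, 6.90 ± 0.634 FPKM with 25 nM and 7.09 ± 0.436 FPKM with 50 nM, with log2 fold changes of -0.71 (SE 0.07, limma adjusted p = 7.61e-05) and -0.67 (SE 0.07, limma adjusted p = 5.53e-05). MPHOSPH8 had 8.78 ± 0.392 FPKM in the DMSO libraries, 11.8 ± 0.527 FPKM with 25 nM and 14.0 ± 0.451 FPKM with 50 nM, with log2 fold changes of 0.43 (SE 0.05, limma adjusted p = 1.66e-04) and 0.67 (SE 0.05, limma adjusted p = 6.89e-06). PPHLN1 had log2 fold changes of 0.15 at 25 nM (SE 0.04, limma adjusted p = 0.0186) and -0.02 at 50 nM (SE 0.04, limma adjusted p = 0.741).

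The other machinery genes with the smallest adjusted p against DMSO were of several kinds. DNMT1, the maintenance DNA methyltransferase, was higher by limma at 25 nM, at 0.34 (SE 0.04, adjusted p = 9.95e-05), and at 50 nM, at 0.20 (SE 0.04, adjusted p = 0.00108). RBBP7 and MTA2, subunits of the NuRD deacetylase complex, were also higher at both doses by limma. RBBP7 changed by 0.39 at 25 nM (SE 0.05, adjusted p = 3.29e-04) and 0.20 at 50 nM (SE 0.05, adjusted p = 0.00858). MTA2 changed by 0.27 at 25 nM (SE 0.04, adjusted p = 6.59e-04) and 0.30 at 50 nM (SE 0.04, adjusted p = 2.71e-04). ADNP, which works with HP1 and the remodeller CHD4, was lower at both doses by limma, at -0.47 (SE 0.06, adjusted p = 3.51e-04) and -0.56 (SE 0.06, adjusted p = 8.4e-05). The HP1 gene CBX5 was lower by limma at both doses as well, at -0.41 (SE 0.08, adjusted p = 0.00284) and -0.47 (SE 0.08, adjusted p = 9.32e-04). So was the remodeller SMARCAD1, at -0.40 at 25 nM (SE 0.09, limma adjusted p = 0.00522) and -0.52 at 50 nM (SE 0.09, limma adjusted p = 0.00106). Unlike CBX5, the HP1 genes CBX1 and CBX3 were higher by limma at 25 nM. They changed by 0.26 (SE 0.04, adjusted p = 0.001265) and 0.17 (SE 0.04, adjusted p = 0.00914). Neither was called at 50 nM, at -0.06 for both (SE 0.04). Between the doses, the smallest adjusted p belonged to CBX1, RBBP4, CBX3 and UHRF1, which were lower at 50 nM than at 25 nM, and to GATAD2B and MPHOSPH8, which were higher, with log2 fold changes of -0.32 to 0.25.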

How the data were processed

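RNA of ACHN cells was sequenced in 9 libraries, 3 each for 0.1% DMSO, 25 nM and 50 nM piericidin A, and grouped by the labels. Mapping used hg38, per the submitters' processing notes. The aligner, the counting program, the annotation release, the RNA selection and the strandedness are not given in any source used here. The authors deposited a table of FPKM, named for read counts but holding no raw counts, and a table of log2 FPKM with no pseudocount for genes above 0 FPKM in all libraries, per the file headers and their values. That FPKM already carries a scaling between libraries by the authors. FPKM times gene length gave whole fragments for 100% of genes within 0.01, from which depth and shares were computed. Intervals are not given for shares, and the SD covers spread between libraries.

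Tests used limma 3.58.1 in R 4.3.3 (lmFit, then eBayes with its trend and robust options). The values were log2(FPKM + 0.1) of genes that reached 0.5 FPKM in 3 or more libraries. All 9 libraries entered 1 fit with group as the only covariate, and p-values were adjusted by Benjamini-Hochberg over the 15541 genes. The fit was tested on simulated data. Members, lists and rules were chosen with earlier results of these data known. Members were named by the 10 smallest adjusted p in each direction (mean of at least 1 FPKM, libraries of the groups not overlapping), the 5 highest means, the largest changes and opposite calls at the doses. Of listed genes that are no members, up to 6 called ones with the smallest adjusted p were named in each comparison. TRIM28, SETDB1 and PPHLN1 were named beside them for their role, and CBX1 and CBX3 were set against DMSO beside CBX5. A table of proteins was planned for finger counts and was not used here. Fingers and KRAB patterns were counted in translated GENCODE 29 coding sequences instead, and GC content comes from the same transcripts. The authors' gene length was within 10% of the GENCODE 29 exon length for 98.2% of members. Promoters are those of RefSeq. No pairing was used, as the labels name no shared day or batch. Same-numbered replicates of different groups did not deviate together. Counts by class without the 25 nM replicate 3, and counts without members that passed the filter through 1 group, were added after the data were seen. Alternatives changed the pseudocount, the low-value filter, the scaling (fragment totals, quantiles), length and GC trends, the libraries in the fit and the replicate block.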

Additional observations from a re-analysis of the deposited data

How the results depend on the processing

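Members are given here as counts of the 135 tested (fewer or more with another filter). At 25 nM, the count of higher members was 1 with the length trend or the GC trend removed, against 3. Over all genes of those fits, 27.1% and 33.6% were higher, against 26.3%. The median of -0.45 became -0.24 with a pseudocount of 1, -0.37 without the length trend, -0.36 without the GC trend and -0.37 without both. At 50 nM, 17, 20 and 19 members were higher without the length, the GC and both trends, and 6 with quantile normalization, which made 96 lower. Over all genes of those fits, 32.1%, 34.0%, 33.9% and 26.6% were higher, against 29.2%. With quantile normalization 36.2% of all tested genes were lower, against 31.5%. The median of -0.24 became -0.14 with a pseudocount of 1, -0.17 with scaling by fragment totals, -0.57 with quantile normalization, and -0.16, -0.0654 and -0.0797 without the length, the GC and both trends. Between the doses, 8 members were higher with quantile normalization, 55 without the GC trend, 56 without both trends and 15 with only those groups in the fit, against 24. Over all genes of those fits, 12.1%, 20.6%, 21.4% and 11.7% were higher, against 14.7%. The lower count of 2 became 11 with quantile normalization, and 1 with no filter, with fragment totals, without the length trend, with only those groups or with the replicate block. Over all genes of those fits, in that order, 18.4%, 14.8%, 8.74%, 14.6%, 12.8% and 16.4% were lower, against 18.8%. The median of 0.14 became 0.0779 with a pseudocount of 1, 0.24 with fragment totals, 0.21, 0.22 and 0.23 without the length, the GC and both trends, and turned to -0.12 with quantile normalization. The cause of these shifts was not tested. The GC steps were chosen after seeing the data.

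With 1 library left out at a time, 2 to 4 members were higher and 63 to 78 lower at 25 nM, with medians of -0.48 to -0.39. At 50 nM 7 to 11 were higher and 41 to 56 lower, with medians of -0.26 to -0.22. Between the doses 16 to 24 were higher and 1 to 3 lower, with medians of 0.13 to 0.19. Over all tested genes, those fits had 22.3% to 26.2% higher and 21.4% to 25.4% lower at 25 nM. The shares were 25.6% to 31.2% and 27.9% to 33.9% at 50 nM, and 9.45% to 15.6% and 12.7% to 21.9% between the doses. Same-numbered samples had correlations of deviations of -0.047 to 0.079 over 9 pairs, against -0.11 to 0.06 over 18 other pairs. These values do not tell how the cultures were made. The replicate block gave 3 higher and 70 lower at 25 nM, 10 and 51 at 50 nM, and 21 and 1 between the doses. With the block, 25.0% of all tested genes were higher and 24.2% lower at 25 nM. The shares were 28.4% and 30.2% at 50 nM, and 13.1% and 16.4% between the doses.

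Of 49 results for single named members, 37 were called under every alternative run and 12 lost the call under at least 1. ZNF358 changed sign without the length and GC trends, to -0.0041 at 25 nM and -0.0206 at 50 nM. Weak expression limits single genes: 89 of the 164 members lay under 1 FPKM, and 29 could not be tested.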
